A study of Mus musculus with 16 samples.

Results

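In single-cell RNA-seq of the CD1 wild-type mouse forebrain at embryonic day 15.5, 60 of 5777 cells (1.04%, exact Clopper-Pearson 95% interval 0.793 to 1.33) were GABAergic-lineage cells with Sp8, here called Sp8 cells. They were chosen by their UMIs alone and carried at least 1 unique molecular identifier (UMI, 1 counted RNA molecule) of Sp8, at least 2 of Sp8 and Adarb2 together, and at least 3 over Dlx1, Dlx2, Dlx5, Gad1 and Gad2. They had no Lhx6 or Sst, at most 1 UMI over the striatal genes Ebf1, Isl1 and Six3, at most 3 of the excitatory neuron gene Neurod6, and at most 2 over 10 mitotic genes. All embryos shared strain, genotype and age, with no treated or mutant group. The droplet kit was SureCell of Illumina and Bio-Rad, and the 16 samples were deposited as 1 count matrix in which no cell is tied to a sample. The matrix is therefore 1 sample: no difference below was tested, intervals cover counting error only, and barcodes shared between libraries could not be counted.

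Interneurons of the forebrain are born in the ganglionic eminences of the ventral telencephalon and migrate from there to the cortex and the olfactory bulb. Sp8 and its relative Sp9 are zinc finger transcription factors of cells from the dorsal lateral eminence, many of them bound for the olfactory bulb, and from the caudal eminence, many of them bound for the cortex. Lhx6 and Sst mark the other large interneuron stream, from the medial eminence. Adarb2, an RNA-binding relative of the adenosine deaminases that edit RNA, is known from caudal eminence interneurons of the cortex.

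The name Sp8 and Adarb2 interneurons held for these cells only in part, since Sp8 was in all of them, as the rule requires, and Adarb2 was not. Sp8 gave 174 UMIs, between 1 and 9 a cell with a median of 2. Adarb2 gave 25 UMIs in 19 of the 60 cells, and 41 cells had none. Of the other markers of the group, Sp9 was found in 32 cells (106 UMIs), the homeobox factor Pbx3 in 24 (90 UMIs) and the zinc finger factor Tshz1 in 24 (97 UMIs). These genes lie at mm10 chr12:118846329-118852576 (Sp8), chr13:8202866-8768747 (Adarb2), chr2:73271925-73284706 (Sp9), chr2:34171457-34373142 (Pbx3) and chr18:84011627-84087706 (Tshz1), all protein coding in GENCODE M21. Per cell thinned to 1000 UMIs, Sp9 was detected in 35% of the Sp8 cells (95% interval 23.1 to 48.4) and in 0.676% of excitatory neurons (0.338 to 1.21). The latter were chosen by at least 4 UMIs of Neurod6, none of Dlx1, Dlx2, Dlx5, Gad1 and Gad2, and the same mitotic limit, so that their shares may understate free interneuron RNA in the droplets, and the source of their Sp9 UMIs was not tested. The unthinned shares were 53.3% and 2.83%, at median depths of 2486.5 and 3925.5 UMIs. Of the groups defined below, thinned Lhx6 cells had Sp9 in 32.1%, striatal cells in 27% and progenitors in 22.3%. In the same order Pbx3 was in 6.64%, 30.2% and 6.8%, and Tshz1 in 9.59%, 12.7% and 9.71%. Sp9 was thus not particular to the Sp8 cells, nor was Pbx3 when set beside striatal cells. Adarb2 was detected in 11.7% of the thinned Sp8 cells against 0.307% of the excitatory neurons, with unthinned shares of 31.7% and 0.921%. Tshz1, Pbx3 and Nr2f2 were detected in 23.3%, 25% and 31.7% of thinned Sp8 cells against 3.32%, 2.4% and 7.8% of excitatory neurons (unthinned 40%, 40% and 43.3% against 11.1%, 6.14% and 18.3%). Meis2, Nr2f1 and Cnr1 were detected in 50%, 45% and 23.3% of thinned Sp8 cells against 39.8%, 39.1% and 39.1% of excitatory neurons (unthinned 70%, 58.3% and 33.3% against 74.2%, 68.9% and 69.5%). For Cnr1 the share of Sp8 cells was thus below that of excitatory neurons, and for all 3 genes the excitatory neurons cannot serve as a background.

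The limit of 2 UMIs over Sp8 and Adarb2 ran through a continuous range. It was met exactly by 28 of the 60 cells, and 51 further cells missed it with 1 Sp8 UMI and no Adarb2 while meeting every other limit. As UMIs per 1e6 UMIs summed over cells (CPM), Sp9 was at 771 CPM in those 28 cells, 501 in the other 32 and 761 in the 51 outside. Meis2 was at 883, 1445 and 951 CPM in the same order. Nr2f2 was at 522, 319 and 419 CPM. A further 38 cells were left out only for their mitotic UMIs. They had Sp9 at 667 and Pax6 at 394 CPM, with Tshz1 at 167 and Pbx3 at 233.

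The Sp8 cells held 168297 UMIs, 1208 to 5751 a cell, so that 1 UMI is 5.94 CPM and a gene with 0 UMIs may lie at up to 17.8 CPM, the level of 3 UMIs. The matrix falls into 2 consecutive runs of cells, and the labels do not name them. They were told apart by where Y-linked UMIs end and where UMIs of 11 genes listed out of order begin. The first run held 47 of the Sp8 cells (1.29% of 3651 cells, 0.947 to 1.71) and the second 13 (0.613% of 2122, 0.327 to 1.05), which at 31429 UMIs leaves values of the second run imprecise. The cells were set beside 271 Lhx6 interneurons (Lhx6 with no Sp8 or Adarb2, same limits), 126 striatal projection neurons (at least 3 UMIs over Ebf1, Isl1 and Six3), 103 eminence progenitors (at least 2 UMIs over progenitor factors, Gsx2 and Olig2 among them, with Dlx1 or Dlx2) and 1628 excitatory neurons. Of the Lhx6 cells 120 lay in the second run, of the striatal cells 7 and of the progenitors 5.

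Markers of cell types outside the neuronal lineage were at 0 or scarce, and those of the compared neuron groups were well below the level in those groups. The 6 microglial, 4 endothelial and 3 oligodendrocyte precursor markers gave no UMI, and the choroid plexus gene Ttr gave 6 UMIs in 6 cells. Of 5 Cajal-Retzius markers Trp73, Lhx1 and Lhx5 were at 0, and the other 2 gave 29 UMIs in 13 cells, 172 CPM against 254 in all cells that are not Sp8 cells. Of these UMIs 26 were of Reln, which the list of caudal eminence genes also holds. The 10 Lhx6 interneuron markers summed to 606 CPM against 5931 in Lhx6 cells, the 10 striatal markers to 345 against 4961 in striatal cells, and the 8 excitatory markers to 576 against 6096 in excitatory neurons, with 33 of the 97 UMIs in 1 cell. The 7 progenitor markers summed to 802 CPM against 2616 in progenitors. Basal forebrain markers (Zic1, Zic2, Zic4 and Lhx8; Gbx2 at 0) summed to 547 CPM, all of it from 13 cells of the first run. By a nearest-neighbour doublet score, 1 of the 60 cells was among the 5% of all cells with the highest scores.

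Against the Lhx6 interneurons, the Sp8 cells were higher in factors of the dorsal lateral eminence. Of 4159 genes with at least 50 UMIs over both groups, 125 were at least 2-fold higher in the Sp8 cells (3.01%) and 305 at least 2-fold lower (7.33%), with a median log2 ratio of -0.02. Because the Lhx6 cells held more UMIs in all, this minimum admits genes more easily through them. It also admits genes through the Sp8 cells where they are high there. Pax6, Pbx3, Foxp2, Meis1, Etv1 and Zfhx3, of the dorsal lateral eminence list, reached it only with the UMIs of the Sp8 cells. The counts of higher genes by list are therefore a description, here and in the comparisons below. Of the 10 dorsal lateral eminence genes measured, of 23 on the list, 8 were at least 2-fold higher and 0 lower, with a median log2 ratio of 2.69. The 10 striatal markers moved the same way, at 345 CPM in the Sp8 cells and 94.1 in the Lhx6 cells, with Isl1, Rarb, Zfp503 and Ikzf1 at 0 in the Sp8 cells. Of 5 striatal genes measured 2 were at least 2-fold higher, Foxp2 and Foxp1, and 0 lower, and the part of striatal RNA in the difference was not tested.

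**Figure D1:**
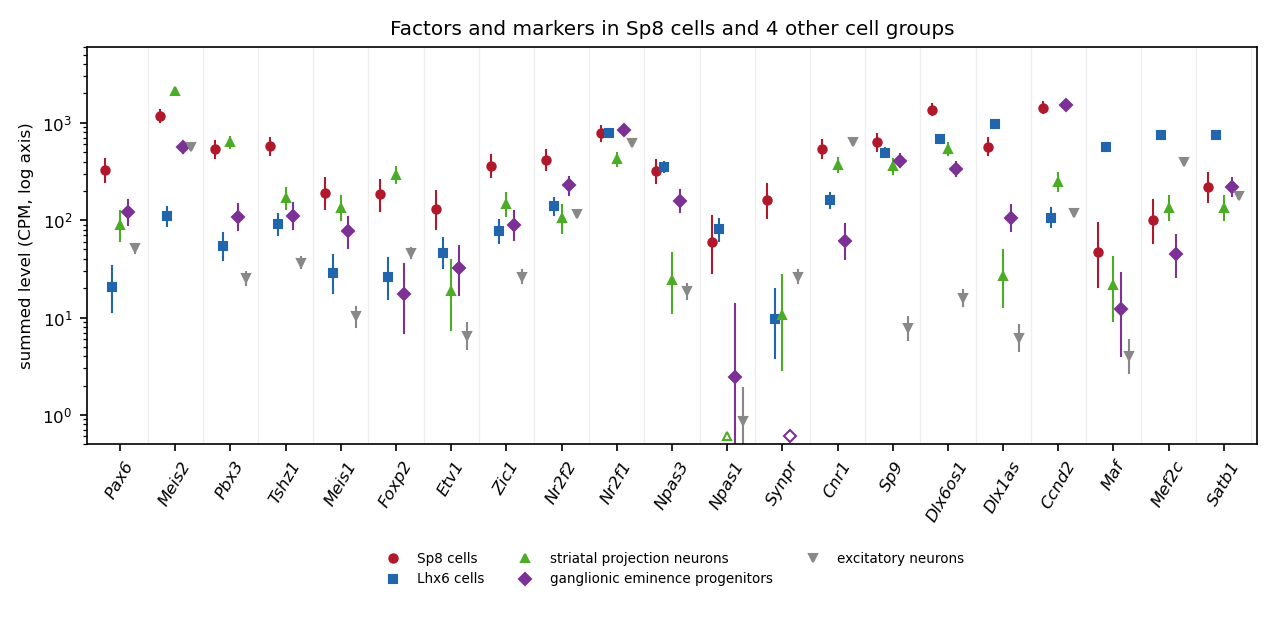
Summed level in CPM (log axis) of 21 genes in the Sp8 cells and 4 other cell groups. Points are sums over the cells of a group, lines are exact Poisson 95% intervals (counting error only), and an open symbol at the lower edge marks 0 UMIs. Pax6, Meis2, Pbx3 and Tshz1 are higher in the Sp8 cells than in the Lhx6 cells, and Maf, Mef2c and Satb1 are lower.

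Pax6, a paired-box factor needed for dopaminergic olfactory bulb neurons, gave 55 UMIs in 23 Sp8 cells, up to 10 in 1 cell. Its level of 327 CPM stood 16-fold (95% interval 8.9 to 30.4) above the 20.5 CPM of Lhx6 cells. Meis2, a homeobox factor of lateral eminence neurons, was in more cells than the other dorsal lateral eminence genes, with 198 UMIs in 42 cells, and 1176 CPM against 109, 10.8-fold (95% interval 8.28 to 14.2) higher. Pbx3, a partner of the Meis proteins, was at 535 CPM against 54.6, 9.8-fold (95% interval 6.68 to 14.6) higher. In both runs taken alone these 3 were higher too, at 13-, 10.2- and 7.65-fold in the first and 22.9-, 4.39- and 9.09-fold in the second. The second-run values rest on few UMIs in the Sp8 cells: 11 of Pax6 in 5 cells, 11 of Meis2 in 4 and 7 of Pbx3 in 3.

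Tshz1, a factor of olfactory bulb interneurons, was 6.31-fold (95% interval 4.57 to 8.74) higher, at 576 against 91.4 CPM, but the first run gave 9.36-fold and the second 1.37-fold, from 5 UMIs. Meis1 and Foxp2 were 6.64-fold and 7.11-fold higher from 32 and 31 UMIs, 1 and 0 of them in the second run. The ETS factor Etv1, which the list of medial eminence genes also holds, was 2.82-fold (95% interval 1.57 to 4.96) higher, and Zfhx3 2.27-fold (95% interval 1.33 to 3.8). Zic1, a zinc finger factor of septal and basal forebrain cells that also acts in the olfactory bulb, was 4.66-fold (95% interval 3.2 to 6.81) higher. Its 61 UMIs came from 11 cells of the first run, 17 of them from 1 cell, and it moved with the basal forebrain markers, whose part in the difference was not tested.

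Of 12 genes of caudal eminence interneurons measured, of 20 listed, 3 were at least 2-fold higher and 0 lower, with a median log2 ratio of 0.18. Nr2f2 (COUP-TFII), an orphan nuclear receptor of the caudal eminence, gave 70 UMIs in 26 cells and stood at 416 against 139 CPM, 2.99-fold (95% interval 2.17 to 4.09) higher. By run it was 1.7-fold higher in the first and 10-fold in the second. The nuclear factor Nfib was 2.11-fold (95% interval 1.79 to 2.47) higher. It was in 50% of thinned Sp8 cells and in 95.7% of thinned excitatory neurons. Markers of excitatory neurons summed to 576 CPM in the Sp8 cells and 386 in the Lhx6 cells, and their part in the Nfib difference was not tested. Cnr1, the cannabinoid receptor that marks a set of caudal eminence interneurons in the adult cortex, was 3.39-fold (95% interval 2.55 to 4.49) higher over both runs, which the first run did not share: its ratio there was 0.934, and 14.1 in the second.

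The other 9 caudal eminence genes measured stayed within 2-fold of the Lhx6 cells. The related receptor Nr2f1 was at 784 CPM in both groups, and Npas3, a bHLH-PAS factor, at 321 against 351. Genes of mature subtypes were scarce at this age. Htr3a, the serotonin-gated channel that marks caudal eminence interneurons after birth, had 0 UMIs, Prox1, a homeobox factor of the same lineage, 4 UMIs in 4 cells, and Npas1 10 UMIs in 7 cells. The calcium-binding protein gene Calb2 gave 9 UMIs in 2 cells, and Th and Scgn, genes of olfactory bulb interneurons, gave 1 and 3. The vesicle protein gene Synpr was detected in 15 cells at 160.4 CPM, against 9.55 in Lhx6 cells, 10.7 in striatal cells and 26.3 in excitatory neurons, and it fell under the minimum of 50 UMIs.

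**Figure D2:**
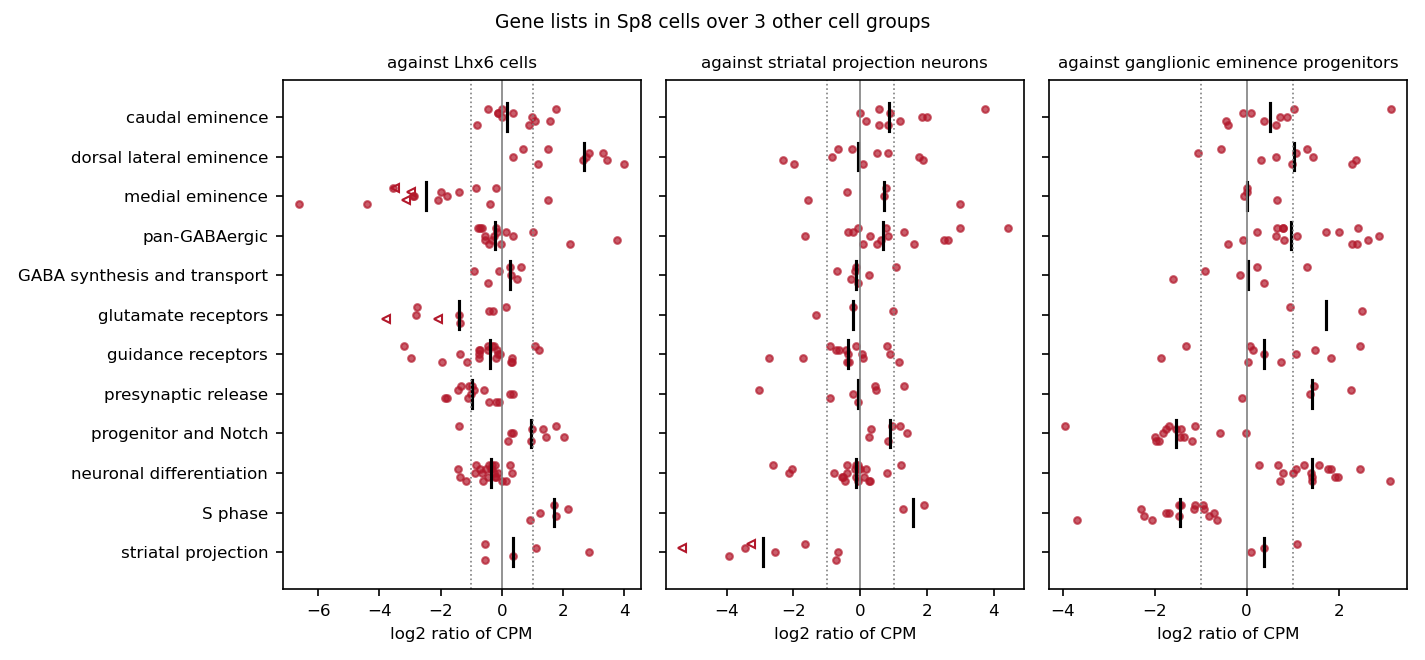
Log2 ratio of CPM in the Sp8 cells over Lhx6 cells, striatal projection neurons and eminence progenitors for the measured genes of 12 lists. Each point is a gene, an open triangle is a bound for a gene with 0 UMIs in the Sp8 cells, the black bar is the list median, and dotted lines mark 2-fold. The dorsal lateral eminence list has its median at 2.69 against Lhx6 cells, and the medial eminence list at -2.47.

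Genes of the medial eminence were low in the Sp8 cells: 12 of 16 measured were at least 2-fold lower, with a median log2 ratio of -2.47, and Etv1 alone was higher. The rule removed every cell with Lhx6 or Sst from the Sp8 cells and required Lhx6 in the other group, so genes that accompany Lhx6 are not independent of it. The large Maf factor gene Maf was 11.8-fold (95% interval 5.96 to 27.6) lower, at 47.5 against 563 CPM, Mef2c 7.43-fold (95% interval 4.6 to 12.8) and Sox6 4.25-fold (95% interval 2.53 to 7.7). Satb1, a chromatin organiser of Sst cells, was 3.44-fold (95% interval 2.46 to 4.93) lower and still present in 24 cells. The neuropeptide gene Npy had 1 UMI against 430 in the Lhx6 cells, a ratio of 0.0101 (95% interval 0.000256 to 0.0568). Nkx2-1, the factor that specifies the medial eminence, and Calb1 had 0 UMIs, at least 8.8-fold and at least 7.8-fold lower.

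Genes shared by GABAergic cells were mostly within 2-fold. Of 16 measured, 3 were at least 2-fold higher and 0 lower, and of 7 genes of GABA synthesis, storage, uptake and chloride transport 0 differed by 2-fold. Slc32a1, which loads GABA into vesicles, was at 125 against 172 CPM, and Sp9, used by no rule, at 629.8 against 492. The largest exception was the D-type cyclin gene Ccnd2, at 1432 against 106 CPM, 13.5-fold (95% interval 10.4 to 17.6) higher. It was found in 31 of 60 cells, up to 29 UMIs in 1, and stood 10.2-fold higher in the first run and 16.6-fold in the second. In the second run, 19 of its 24 UMIs in the Sp8 cells came from 1 cell. The Rac activator gene Tiam2 was 4.68-fold (95% interval 2.99 to 7.34) and the noncoding Dlx6os1 2.01-fold (95% interval 1.71 to 2.36) higher. Dlx6os1 and Dlx1as overlap Dlx genes on the other strand, and since no source used here says whether counting used strand, their reads cannot be told apart from those of their partners.

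Genes of synapses and of some migration receptors were lower than in Lhx6 cells. Of 9 glutamate receptor genes measured 6 were at least 2-fold lower and 0 higher (median log2 ratio -1.40): Gria1, an AMPA receptor subunit, was 6.85-fold (95% interval 4.35 to 11.5) lower, at 113 against 773 CPM, and Grm5, a metabotropic receptor, had 0 UMIs against 178, at least 13.6-fold lower. Of 15 genes of vesicle release 7 were lower and 0 higher. Neto1, an auxiliary subunit of kainate receptors, had 1 UMI against 178. Dlgap1, a postsynaptic scaffold gene, was 19.2-fold (95% interval 7.44 to 71) lower, and the adhesion gene Chl1 13.5-fold (95% interval 7.67 to 26.2). Of 22 migration and guidance receptors 5 were lower and 2 higher. Cxcr4 and Ackr3, the receptors for the chemokine Cxcl12 that steers interneurons through the cortex, were 7.8-fold (95% interval 2.98 to 29.1) and 9.21-fold (95% interval 4.62 to 21.5) lower, while Robo2, a Slit receptor, was 2.31-fold (95% interval 1.38 to 3.79) higher. Rnd3, a small GTPase gene of migrating neurons, was outside that list, and stood 4.36-fold (95% interval 3.24 to 5.86) higher.

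Some genes of dividing and immature cells were higher than in the Lhx6 cells although both groups had the same mitotic limit. Of 5 S-phase genes measured, of 22, 4 were at least 2-fold higher and 0 lower: Mcm6, a subunit of the replicative helicase, was 4.48-fold (95% interval 2.75 to 7.29) higher, at 219.8 against 49.1 CPM, and Pcna, the replication clamp, 3.37-fold (95% interval 1.89 to 5.94). In the second run, Pcna rested on 1 UMI. Of 10 progenitor and Notch genes 4 were higher and 1 lower, among them the Notch target Hes5 at 119 against 43.6 CPM, with 12 of its 20 UMIs in 1 cell. Of 23 neuronal differentiation genes 20 stayed within 2-fold and 3 were lower. Doublecortin (Dcx), a microtubule protein of migrating neurons, was in 59 of 60 cells, at 2935 against 3208 CPM.

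Against striatal projection neurons, which are born in the lateral eminence, the Sp8 cells were within 2-fold in several lateral eminence factors and lower in striatal genes. Of 2643 genes measured 70 were at least 2-fold higher (2.65%) and 126 lower (4.77%), with a median log2 ratio of -0.003. Pbx3 was at 535 CPM against 631 and Foxp2 at 184 against 294, both within 2-fold. Meis2 was at 1176 against 2121, 1.8-fold (95% interval 1.54 to 2.12) lower, also within the limit. Only 2 of the 10 dorsal lateral eminence genes measured were at least 2-fold higher, and 2 were lower: Pax6 was 3.7-fold (95% interval 2.36 to 5.89) and Tshz1 3.42-fold (95% interval 2.47 to 4.77) higher, Zfhx3 4.93-fold (95% interval 3.24 to 7.84) and Zfhx4 3.94-fold (95% interval 1.89 to 9.48) lower. Tshz1 had a ratio of 4.21 within the first run and 0.444 within the second, which holds only 7 striatal cells.

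Factors that the Sp8 cells shared with the Lhx6 cells were among the highest against striatal cells. Dlx1as was 21.3-fold (95% interval 11.1 to 45.9) higher, Npas3 13.3-fold (95% interval 6.53 to 30.7), the zinc finger factor Zeb2 7.91-fold (95% interval 5.37 to 11.9) and the bHLH factor Tcf4 6.16-fold (95% interval 5.01 to 7.6). The Lhx6 cells had 351 CPM of Npas3, 821 of Zeb2 and 2597 of Tcf4. Ccnd2 was 5.76-fold (95% interval 4.51 to 7.39) and Nr2f2 3.99-fold (95% interval 2.66 to 6.06) higher. In all, 4 of 10 caudal eminence genes and 6 of 16 pan-GABAergic genes were at least 2-fold higher, with 0 and 1 lower. Npas3, Nr2f2 and Dlx1as reached the minimum of UMIs only with those of the Sp8 cells, so these counts are a description. Among 8 striatal genes measured 6 were lower and 0 higher, from a list chosen to mark that group. The forkhead gene Foxp1 was 11-fold (95% interval 6.96 to 18.4) lower, and the zinc finger gene Zfp503 had 0 UMIs against 268, at least 40.2-fold lower. Bcl11b, needed for striatal neurons to mature, was 3.11-fold (95% interval 2.53 to 3.86) lower yet present at 618 CPM. Ttr, a choroid plexus secretory gene, was 94.7-fold (95% interval 43.4 to 259) lower. Its 1263 UMIs in striatal cells came from 14 cells, and 1246 of them from 1 cell, so the fold rests on that cell.

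Against eminence progenitors the Sp8 cells were higher in genes of neuronal differentiation and within 2-fold in Ccnd2. Of 2912 genes measured 225 were at least 2-fold higher (7.73%) and 354 lower (12.2%), with a median log2 ratio of -0.08. Of 17 neuronal differentiation genes 13 were higher and 0 lower, among them Dcx 5.51-fold (95% interval 4.68 to 6.49), the tubulin-binding gene Stmn2 3.95-fold (95% interval 3.24 to 4.83), Mapt (tau) 3.77-fold (95% interval 3 to 4.75) and the factor Myt1l 8.64-fold (95% interval 4.98 to 15.8). The progenitors were chosen by progenitor factors without a mitotic limit, and many progenitor and S-phase genes reached 50 UMIs only through them, so lower values of these genes follow in part from the rules and are a description: Notch1 was 3.93-fold (95% interval 2.38 to 6.92) lower, Hes5 3.22-fold (95% interval 2.01 to 5.42) and Btg2, an antiproliferative gene of cells about to leave the cycle, 15.4-fold (95% interval 5.88 to 57.1). Mcm2, a helicase subunit, was lower by 4.18-fold (95% interval 2.5 to 7.49). Ccnd2 was at 1432 against 1510.4 CPM, a ratio of 0.948 (95% interval 0.813 to 1.1). The lateral eminence factors were higher as well: Tshz1 was 5.19-fold (95% interval 3.61 to 7.56) and Pbx3 4.92-fold (95% interval 3.4 to 7.23) higher, followed by Pax6 at 2.7-fold (95% interval 1.81 to 4.06) and Meis2 at 2.09-fold (95% interval 1.72 to 2.54). Tshz1, Pbx3, Pax6 and the differentiation gene Myt1l reached 50 UMIs only with the UMIs of the Sp8 cells, so these values are a description too. In the second run, with 5 progenitors, the ratios of Tshz1 and Meis2 were 0.367 and 0.558.

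The Sp8 cells were not uniform, and cells with Nr2f2 were lower in the lateral eminence factors. A UMI of Nr2f2 was found in 26 cells and none in 34, at median depths of 2409.5 and 2707.5 UMIs. Of 618 genes with at least 50 UMIs over both, 12 were at least 2-fold higher in the cells with Nr2f2 (1.94%) and 18 lower (2.91%). Of 5 caudal eminence genes measured 4 were higher and 0 lower, and of 6 dorsal lateral eminence genes 5 were lower and 0 higher. A cut on 1 gene is a range rather than a cell type, and a cell without a UMI may still express the gene.

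On the Nr2f2 side, Npas3 was at 646 CPM in cells with Nr2f2 and 82.4 in cells without, 7.84-fold (95% interval 3.66 to 19.2) higher. Nr2f1 was at 1446 against 299, 4.84-fold (95% interval 3.18 to 7.58) higher, and Nfib 2.44-fold (95% interval 1.85 to 3.24). On the other side, Tshz1 was 7.17-fold (95% interval 3.61 to 16.2) lower in cells with Nr2f2, at 126 against 907 CPM. Meis2 was 3.81-fold (95% interval 2.59 to 5.75) lower, at 449 against 1710.0 CPM, and Pbx3 3.15-fold (95% interval 1.84 to 5.7), at 239 against 752. Pax6 was 2.15-fold (95% interval 1.15 to 4.27) lower. Sp9, at 659.9 against 608 CPM, stayed within 2-fold.

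**Figure D3:**
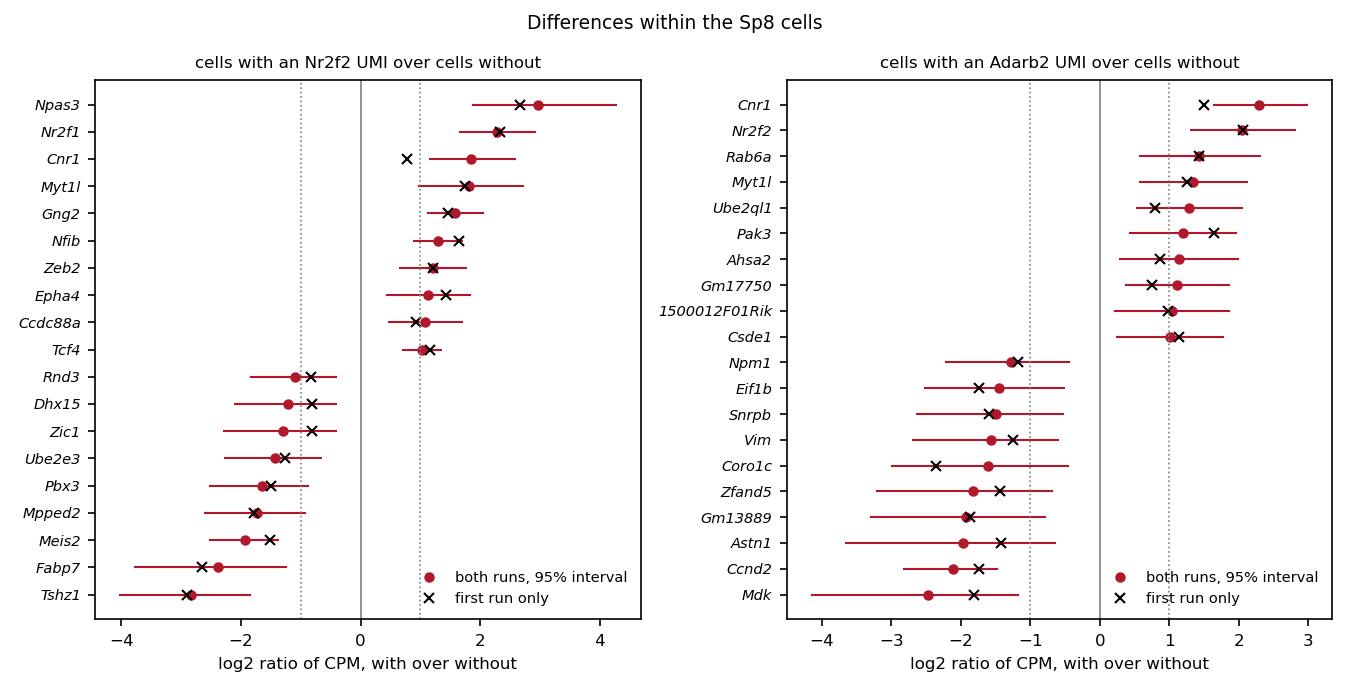
Log2 ratio of CPM between Sp8 cells with and without an Nr2f2 UMI (left) and with and without an Adarb2 UMI (right), for up to 10 of the genes furthest apart in each direction. Circles and lines give both runs with 95% counting intervals, crosses the first run alone. Tshz1, Fabp7, Meis2, Mpped2 and Pbx3 lie below 2-fold lower in cells with Nr2f2 in both sets of values. For Fabp7, 25 of its 52 UMIs in the first run came from 1 cell. Its log2 ratio turned to 0.13 with the rules and the values on separate UMIs.

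The same order held in the first run alone, which has 16 cells with Nr2f2 and 31 without: the ratio was 6.36 for Npas3, 5.05 for Nr2f1, 0.133 for Tshz1, 0.35 for Meis2 and 0.355 for Pbx3. Cnr1 depended more on the run, at 3.6-fold (95% interval 2.24 to 5.95) over both runs and 1.72 in the first. Markers of excitatory neurons summed to 983 CPM in cells with Nr2f2 and 278 in cells without, striatal markers to 140.4 and 494, and basal forebrain markers to 267 and 752. Among the 44 Sp8 cells with no UMI of Neurod6, Ebf1, Isl1 or Six3, the log2 ratio was 2.67 for Nr2f1 (from 2.28 in all 60), 3.15 for Npas3 (from 2.97), -3.58 for Tshz1 (from -2.84) and -2.95 for Meis2 (from -1.93). Myt1l fell to 0.97 (from 1.82) and Epha4 to 0.41 (from 1.12), both then within 2-fold. In these cells 11 genes were higher (2.78% of those measured) and 16 lower (4.05%). The part of these marker groups in the differences was not otherwise tested.

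Per cell, the factors overlapped in part. Of the 60 cells, 31 had a UMI of Tshz1, Pbx3 or Meis2 and none of Nr2f2, 10 had Nr2f2 and none of the others, 16 had both and 3 had neither. After thinning to 1000 UMIs, Nr2f1 was found in 15 of the 19 cells with Nr2f2 (78.9%, 54.4 to 93.9) and in 12 of the 41 without (29.3%, 16.1 to 45.5). Tshz1 was found in 1 of 19 (5.26%, 0.133 to 26) and 13 of 41 (31.7%, 18.1 to 48.1), and Pbx3 in 2 and 13. Meis2 was found in 6 of 19 and 24 of 41. The sum of Nr2f2, Nr2f1 and Npas3 against that of Tshz1, Pbx3 and Meis2, sets formed after these values were seen, gave 21 cells with 3 or more UMIs of the first set only, 27 with 3 or more of the second only, 9 with both and 3 with neither.

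**Figure D4:**
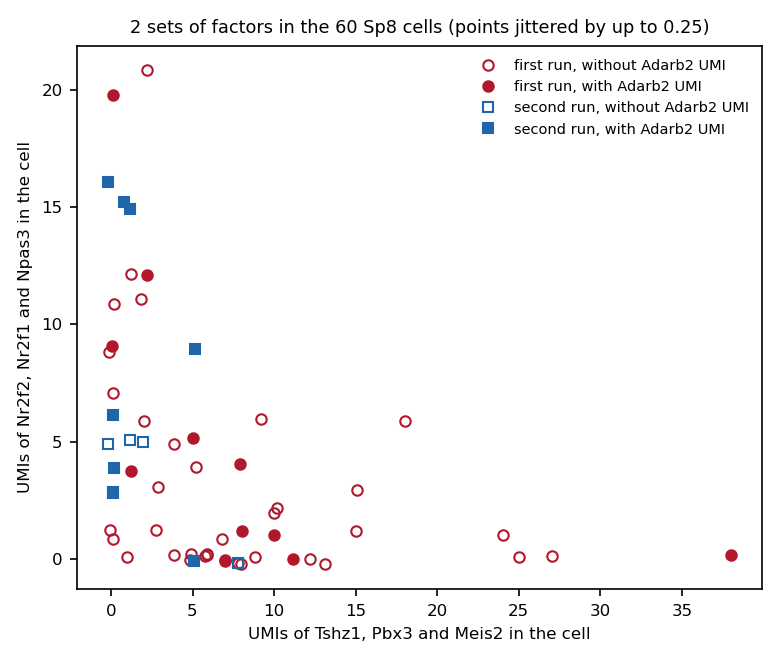
UMIs of Tshz1, Pbx3 and Meis2 (horizontal) and of Nr2f2, Nr2f1 and Npas3 (vertical) in each of the 60 Sp8 cells, shifted by up to 0.25 to separate points. Circles are the first run, squares the second, and filled symbols have an Adarb2 UMI. Most cells lie near 1 of the 2 axes, with up to 38 UMIs of the first 3 genes or up to 21 of the other 3.

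The 2 runs held these cells in different proportions. A UMI of Nr2f2 was found in 34.0% of the 47 Sp8 cells of the first run (95% interval 20.9 to 49.3) and in 76.9% of the 13 of the second (46.2 to 95), and Adarb2 in 23.4% (12.3 to 38.0) and 61.5% (31.6 to 86.1). Of 619 genes measured, 61 were at least 2-fold higher in the first run (9.85%) and 23 lower (3.72%), with Tshz1 at 672 against 159 CPM and Meis2 at 1366 against 350.0. Npas3 was at 190.0 against 891 CPM and Cnr1 at 139 against 2291. Pax6, at 321 and 350.0, and Dlx6os1, at 1344 and 1432 CPM, stayed within 2-fold. Tshz1 was in 19 of 47 cells and 5 of 13, with at most 15 and 1 UMIs a cell. Meis2 was in 38 of 47 and 4 of 13. Cajal-Retzius markers summed to 80.4 and 573 CPM in the same order, striatal markers to 402 and 95.5, excitatory markers to 621 and 382, and basal forebrain markers to 672 and 0. Their part in the difference between the runs was not tested.

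The 19 cells with Adarb2, at a median of 2345 UMIs, differed from the 41 without, at 2674, in Nr2f2 and Cnr1 on 1 side and in Ccnd2 on the other. The rule admits a cell with 1 Sp8 UMI only where it has Adarb2, so 11 of the 19 cells and none of the 41 had 1 Sp8 UMI, and the division is also one by Sp8. Of 619 genes measured, 11 were at least 2-fold higher (1.78%) and 29 lower (4.68%). Nr2f2 was at 882 against 213 CPM, 4.14-fold (95% interval 2.48 to 7.04) higher, with a ratio of 4.18 in the first run. Cnr1 was 4.91-fold (95% interval 3.11 to 7.92) higher, and 2.82-fold in the first run. The proliferative gene Ccnd2 was 4.33-fold (95% interval 2.79 to 7.06) lower, at 431 against 1868 CPM, with a ratio of 0.301 in the first run. The growth factor gene Mdk was 5.57-fold (95% interval 2.27 to 17.7) and the radial glia filament gene Vim 2.96-fold (95% interval 1.52 to 6.45) lower. Of 6 dorsal lateral eminence genes 0 differed by 2-fold between cells with and without Adarb2, with Tshz1 at 549 against 588 CPM and Pbx3 at 725 against 452. Of the 19 cells with Adarb2, 1 held 38 UMIs of Tshz1, Pbx3 and Meis2 together and the next highest 11. The levels with Adarb2 thus rest in part on 1 cell. Among the 49 cells with 2 or more Sp8 UMIs, 8 of them with Adarb2, the log2 ratio was 1.17 for Nr2f2 (from 2.05), 2.74 for Cnr1 (from 2.30) and -2.61 for Ccnd2 (from -2.12). Whether the divisions by Adarb2 and by Nr2f2 differ was not tested. The 5 Cajal-Retzius markers, of which Trp73, Lhx1 and Lhx5 were at 0, summed to 392 CPM in cells with Adarb2 and 76.8 in cells without, and their part in these differences was not tested.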

How the data were processed

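RNA of single forebrain cells from 16 samples of 1 group was measured by droplet sequencing, and the authors deposited raw UMI counts as 1 matrix of 14498 genes and 5777 cells (1111 to 17398 UMIs a cell, median 3258), on mm10 (per the submitters' processing notes). Which aligner, counter and annotation were used is not given in the sources used here, and the matrix holds 0 mitochondrial genes. The cells, the 28 gene lists and the comparisons were chosen with earlier results of these data known.

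UMIs were summed over the cells of a group and scaled to its total (CPM). Genes of the rules were left out, and genes with at least 50 UMIs over both groups count as measured. A gene is called at 2-fold, ratios carry exact conditional binomial 95% intervals, and a gene with 0 UMIs was set to 3 over the group. Shares were taken after thinning cells to 1000 UMIs, with Clopper-Pearson intervals. Whether the cells came from separate animals is not stated.

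Named genes are the markers of the group, the measured genes of 5 identity lists, per comparison the 10 in each direction whose interval bound lies furthest from 1, and the 2 largest per direction of every other list. Genes named beyond it were chosen after their values were seen, and some genes that the rule names are not reported here. Doublets were kept, and removing the 5% of cells with the highest scores was an alternative. The sums and intervals were tested on simulated data. Python 3.11.15, NumPy 2.4.6, SciPy 1.17.1, pandas 2.3.3, scikit-learn 1.9.0 and Matplotlib 3.10.9 were used.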

Additional observations from a re-analysis of the deposited data

Results flagged for a closer look

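Of 333 ratios of named genes looked at in both runs, 4 lay on opposite sides of 1 by more than their counting intervals, and these differences between the runs were not tested. Against striatal projection neurons, Nfib had a ratio of 2.69 within the first run and 0.565 within the second. Lhx2, a LIM homeobox gene, had 2.22 and 0.16. Cnr1 had 0.367 and 12.8. These 3 second-run values rest on 7 striatal cells. Between Sp8 cells with and without an Nr2f2 UMI, Ccnd2 had 0.633 within the first run and 6.89 within the second. The latter compares 23 UMIs over the 10 cells with Nr2f2 to 1 UMI over the 3 without. Only 4 Sp8 cells of the second run had a Ccnd2 UMI, and 19 of their 24 UMIs came from 1 cell.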

How the results depend on the processing

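With a minimum of 20 UMIs, genes past the limit numbered 463 higher and 760 lower against Lhx6 cells, 362 higher and 498 lower against striatal cells, 635 higher and 942 lower against progenitors, 130 higher and 208 lower with Adarb2 and 127 higher and 144 lower with Nr2f2. At a limit of 1.5-fold, genes past the limit numbered 480 higher and 718 lower against Lhx6 cells, 264 higher and 331 lower against striatal cells, 493 higher and 681 lower against progenitors, 70 higher and 87 lower with Adarb2 and 44 higher and 68 lower with Nr2f2. With equal weight per cell, genes past the limit numbered 17 higher with Adarb2 (2.75%). In the first run alone, genes past the limit numbered 58 higher and 155 lower against Lhx6 cells (2.19% and 5.86%) and 4 higher with Adarb2 (0.873%). Of the 73 list genes past 2-fold against Lhx6 cells, the count was then 47. The log2 ratio turned to -0.10 for Cnr1 (Lhx6 cells). In the second run alone, genes past the limit numbered 70 higher against Lhx6 cells (4.23%). Against striatal cells they numbered 8 higher and 3 lower (9.41% and 3.53%), and against progenitors 20 higher and 10 lower (21.1% and 10.5%). They were 1 higher and 3 lower with Adarb2 (2.56% and 7.69%) and 3 higher and 1 lower with Nr2f2 (7.69% and 2.56%). Of the 73 list genes past 2-fold against Lhx6 cells, the count was then 39. The log2 ratio turned to -0.015 for Foxp1 (Lhx6 cells), -0.32 for Gm13889 (striatal cells), -1.17 for Tshz1 (striatal cells), -0.91 for Tiam2 (striatal cells), -0.91 for Mcm7 (striatal cells), -0.82 for Nfib (striatal cells), -1.45 for Tshz1 (progenitors), -0.60 for Bcl11b (progenitors), -0.84 for Meis2 (progenitors), -0.41 for Pak3 (Adarb2), -0.44 for Nfib (Nr2f2), -0.36 for Tcf4 (Nr2f2). The rules were also applied to 1 part of the UMIs of each cell, drawn at random at even odds, with values taken from the rest. Genes past the limit then numbered 28 higher and 75 lower against Lhx6 cells (2.78% and 7.46%). Against striatal cells they numbered 20 higher and 25 lower (3.37% and 4.22%), and against progenitors 64 higher and 111 lower (7.36% and 12.8%). They were 3 higher and 5 lower with Adarb2 (3.06% and 5.10%) and 4 higher and 8 lower with Nr2f2 (4.08% and 8.16%). Of the 73 list genes past 2-fold against Lhx6 cells, the count was then 23. The log2 ratio turned to -0.20 for Foxp1 (Lhx6 cells), -1.53 for Epha7 (Lhx6 cells), -0.057 for Slc38a1 (striatal cells), 1.31 for Ttr (striatal cells), -1.85 for Dusp1 (progenitors), -0.20 for Npas3 (progenitors), 0.039 for Npm1 (Adarb2), -0.26 for Zeb2 (Nr2f2), -1.38 for Epha4 (Nr2f2), 0.13 for Fabp7 (Nr2f2). With Sp8 at 2 or more, genes past the limit numbered 45 lower with Adarb2 (9.55%). The Sp8 cells numbered 32 (0.554%) with at least 3 UMIs of Sp8 and Adarb2, 98 (1.7%) with no mitotic limit, 19 (0.329%) in cells thinned to 1000 UMIs, 13 (0.613%) in the second run, and made up 0.762% with no UMI of Neurod6, Ebf1, Isl1 or Six3. Shares of Sp8 cells with a UMI at 1000 UMIs, at 500 UMIs and unthinned were 35%, 21.7% and 53.3% for Sp9, 25%, 13.3% and 40% for Pbx3, 23.3%, 10% and 40% for Tshz1. Unthinned, the share with Tshz1 was -36.7 percentage points in cells with Nr2f2 minus cells without, from -26.4 thinned, and that of Meis2 -35.3 from -27. The cause of these changes was not tested, except that fewer cells, split UMIs and a second run of 13 Sp8 cells leave fewer genes measured. No paired analysis was possible because the matrix pools the samples. With 60 cells, a gene needs 3 UMIs to stand above 17.8 CPM, so scarce factors and receptors are below what this depth can show.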

Other observations

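Gene lists not described so far added few differences from the Lhx6 cells, each read against 3.01% of all genes higher and 7.33% lower. Of 6 cadherin and protocadherin genes measured 3 were at least 2-fold lower and 0 higher, with Pcdh19, an adhesion gene, 9.43-fold (95% interval 5.08 to 19.8) lower. Of 13 neurexin, contactin and related adhesion genes 4 were lower and 0 higher, among them the receptor phosphatase gene Ptprd at 5.21-fold (95% interval 3.06 to 9.65) lower. Of 4 GABA receptor genes 2 were lower, Gabrb2 and Gabbr1, from 4 and 11 UMIs in the Sp8 cells. Of 6 guidance ligands 2 were lower, Sema3a and Sema6a, from 2 and 4 UMIs. Of 6 immediate early and heat shock genes 2 were lower, Fos by 2.65-fold (95% interval 1.56 to 4.83) and Btg2 from 4 UMIs, and 0 were higher.

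The chemokine gene Cxcl14, expressed by caudal eminence interneurons of the adult cortex, gave 10 UMIs in 5 Sp8 cells (59.4 CPM) and 0 in the 271 Lhx6 cells. Npas1 gave 1 UMI in the 47 Sp8 cells of the first run and 9 in the 13 of the second. Reln, a secreted glycoprotein gene, was at 154 CPM in the Sp8 cells and 269 in Lhx6 cells, and by run at 80.4 and 477 CPM in the Sp8 cells.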
